A study of Homo sapiens with 9 samples.

Results

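The response shared by a pair of taxane-resistant breast cancer cell lines was described here by setting the 6 resistant arrays, taken as 1 group, against the 3 sensitive ones. A gene belonged to the common response when its pooled resistant minus sensitive difference passed limma's test at a Benjamini-Hochberg adjusted p under 0.05 and had the same sign in each line. Of 11963 genes tested, 9592 had the same sign in both lines and 3026 of those passed the test. All cells derived from MDA-MB-231, a human triple-negative breast cancer line in long use, and 1 µM verapamil was present in every group. Verapamil blocks calcium channels and the drug efflux pump P-glycoprotein. Sensitive cells had verapamil alone, the docetaxel-resistant line had verapamil with 2 nM docetaxel, and the paclitaxel-resistant line had verapamil with 7 nM paclitaxel. Total RNA came from 3 separate passages of each, giving 9 arrays in 3 groups of 3. Each resistance was represented by 1 line, so the errors describe passages and not separately selected lines. Drug in the medium and selection changed together, so that the effect of the one and of the other cannot be told apart.

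Docetaxel and paclitaxel are taxanes, which bind beta-tubulin inside the microtubule, stabilize it and stall cells in mitosis. Cells can escape by pumping the drug out, by altering tubulin or the proteins that load onto it, or by tolerating the arrest and its death signals. MDA-MB-231 is a basal-like line of mesenchymal character, known for inflammatory cytokine expression.

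The deposited values are probe set intensities on a linear scale, and all differences below are on the log2(intensity + 16) scale, which understates changes of genes that are low on 1 side. The median intensity of an array ran from 33.7 to 43.9, and 24.0% to 27.0% of probe sets lay under 16. The GAPDH control, read as 3' minus 5' probe sets on the log2 scale, ran from 0.0145 to 0.0389 in the sensitive, 0.0067 to 0.131 in the docetaxel-resistant and 0.0935 to 0.201 in the paclitaxel-resistant arrays, and the part of RNA quality in the differences was not tested. Within groups 1 axis held 43.4% of the variance, with sensitive replicate 2 at its low end (score -0.51) and sensitive replicate 1 (0.45) and docetaxel-resistant replicate 3 (0.46) at its high end. Of the genes higher in both lines 74.9% had a positive weight on that axis, against 26.2% of those lower in both and 36.8% of those outside the common response. Its part in the response was not tested. The 3026 genes of the common response became 2976, 2336 and 2343 without sensitive replicates 1, 2 and 3. Sensitive replicate 3 had a score of 0.06 on the axis. The bioC control probe sets averaged 235.7 in that array and 57.2 to 88.5 in the others, and the part of this difference was not tested.

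The common response held 1521 genes higher (12.7% of all tested) and 1505 lower (12.6%), together 25.3% of all genes. The balance of directions depends on the scaling of the arrays: with no normalization between them 1552 were higher and 1032 lower. Its median difference was 0.81 among the higher and -0.63 among the lower genes, against -0.04 over all genes. With the pseudocount of 16 the largest changes were losses. At least 4-fold differences were seen in 32 higher and 53 lower genes, at least 8-fold in 7 and 21, and at least 16-fold in none of the higher and 11 of the lower. The absence of 16-fold gains depends on that pseudocount. With a pseudocount of 1 the gains of IL7R and MAGEC1 were 6.64 and 6.36, and HLA-DRA and CD74 were at -8.13 and -7.82. In 2489 of the 3026 genes the 6 resistant arrays all lay on 1 side of the 3 sensitive ones, a separation shown by 24.1% of all genes. Each line alone passed the test against the same 3 sensitive arrays in 1733 genes, 1 line alone in 1104 and neither in 189.

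**Figure D1:**
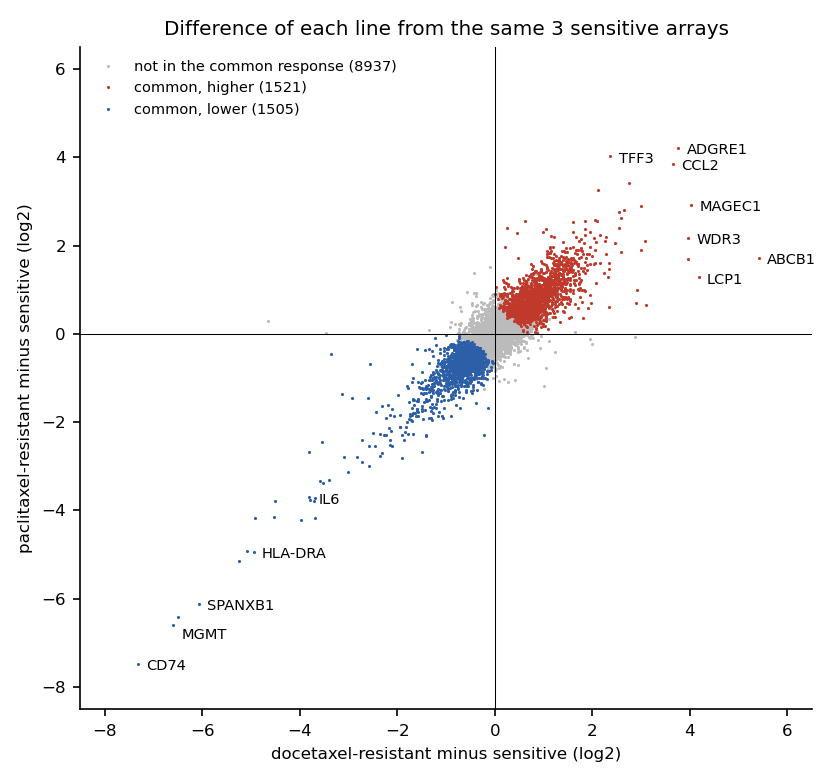
Difference of the docetaxel-resistant line (x axis, log2) and of the paclitaxel-resistant line (y axis, log2) from sensitive cells, 1 point per gene, with the common response in red (higher, 1521 genes) and blue (lower, 1505 genes). Both axes use the same 3 sensitive arrays, so noise in those arrays pulls points along the diagonal; CD74 lies lowest in both lines and ABCB1 far to the docetaxel side.

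Among the strongest losses were MGMT and RGCC, whose resistant arrays lay below the array medians, and ZSCAN18, which fell but stayed above them. MGMT, a repair enzyme that reverses alkylation of guanine, had intensities of 2542, 2961 and 2756 in the sensitive arrays and of 10.6 to 13.7 (median 12.4) in the 6 resistant ones. The groups were far apart and all 6 resistant arrays sat close together. The difference was -6.60 ± 0.12 (SE, 3 sensitive and 6 resistant arrays, limma adjusted p = 6.57e-11). RGCC, a regulator of the cell cycle and of complement responses, stood at 1098, 863 and 1301 against 16.3 to 24.1 (median 17.9), and fell by 5.00 ± 0.13 (adjusted p = 5.07e-10). ZSCAN18, a zinc finger transcription factor, stood at 3757, 2777 and 6479 against 154 to 266 (median 169), a difference of -4.34 ± 0.24 (adjusted p = 4.46e-07), and a further probe set of it gave -4.82. No array of 1 side reached the other in any of these genes, but the rule that named them required this of their normalized values. Their start sites lie in CpG-rich sequence, unlike that of CD74, the gene with the largest loss. They were picked for display and do not stand for the losses: of the 53 genes at least 4-fold lower 39 had a promoter entry, too few for a comparison over the set. Methylation was not measured. The 250 bases before each RefSeq start site (GRCh38.p14) are chr10:129466991-129467240 on the plus strand, with 36 CpG, chr13:41457300-41457549 on the plus strand, with 34, and chr19:58118405-58118654 on the minus strand, with 27. They read 5′ to 3′ with each CpG in capitals.
MGMT: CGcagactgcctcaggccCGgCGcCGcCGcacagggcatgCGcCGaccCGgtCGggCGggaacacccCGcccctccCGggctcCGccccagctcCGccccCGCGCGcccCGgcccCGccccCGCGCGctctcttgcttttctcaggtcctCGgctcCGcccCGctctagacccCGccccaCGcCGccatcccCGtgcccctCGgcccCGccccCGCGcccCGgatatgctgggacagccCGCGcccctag
RGCC: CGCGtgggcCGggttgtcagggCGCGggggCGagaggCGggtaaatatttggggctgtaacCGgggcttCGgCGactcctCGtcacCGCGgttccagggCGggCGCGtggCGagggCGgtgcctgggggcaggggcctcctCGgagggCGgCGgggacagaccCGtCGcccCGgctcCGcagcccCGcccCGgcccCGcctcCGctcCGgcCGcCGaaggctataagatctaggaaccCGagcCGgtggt
ZSCAN18: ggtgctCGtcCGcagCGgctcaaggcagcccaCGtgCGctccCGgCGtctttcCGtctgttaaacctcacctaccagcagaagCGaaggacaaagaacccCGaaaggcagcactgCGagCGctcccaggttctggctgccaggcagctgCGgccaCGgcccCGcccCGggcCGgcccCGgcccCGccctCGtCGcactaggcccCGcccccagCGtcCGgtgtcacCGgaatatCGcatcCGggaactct

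ADIRF, a regulator of fat cell differentiation, fell from 6798, 5087 and 5341 to between 43.3 and 56.0 (median 47.6), by 6.45 ± 0.14 (adjusted p = 1.43e-10). SLCO4A1, an organic anion transporter, fell from 2247, 2019 and 2024 to between 29.5 and 118 (median 80.0), by 4.55 ± 0.21 (adjusted p = 1.07e-07). MFAP2, a protein of elastic microfibrils, stood at 328, 283 and 385 in sensitive cells and at 0.49 to 11.4 in resistant ones (difference -4.10 ± 0.16). In all of these the weakest sensitive array was brighter than any resistant array, a separation that the naming rule required. NNMT, the enzyme that methylates nicotinamide, fell by 3.93 ± 0.19, with -3.82 in its other probe set.

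Counted on the deposited intensities, with no pseudocount, 15 genes had a log2 intensity of at least 7 in every array of 1 side and of at most 5 in every array of the other. In 11 the signal was lost in both resistant lines: MGMT, SPANXB1, RGCC, HLA-DRA, MFAP2, IL6, FCGRT, HLA-DRB6, CTSF, IFI27 and CALB2. In 4 it was gained: ADGRE1, CCL2, IGSF3 and POLM. The lost set spans DNA repair (MGMT), antigen presentation (HLA-DRA), the IgG receptor of the neonate and of endothelium (FCGRT), a lysosomal cysteine protease (CTSF) and a calcium buffer (CALB2). HLA-DRB6 is a pseudogene close in sequence to HLA-DRB1, its probe set name ends in _x_at or _s_at, which marks probe sets that may match several transcripts (called multi-transcript here), and with those dropped it was at -0.04, so its signal and that of HLA-DRB1 cannot be told apart.

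**Figure D2:**
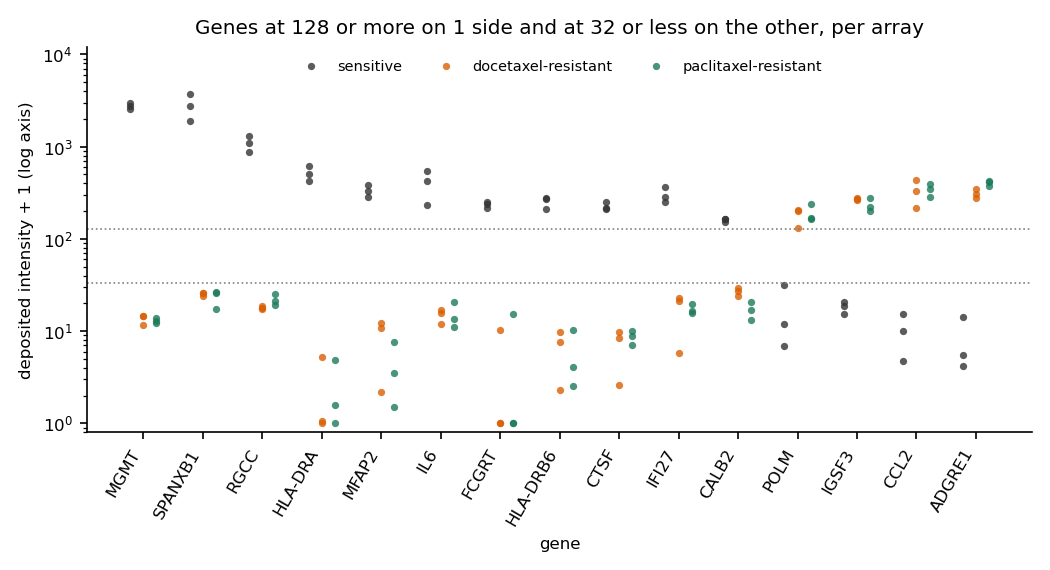
Deposited intensity plus 1 on a log axis in each of the 9 arrays, for the 11 genes lost and the 4 gained in both resistant lines; dotted lines mark log2 intensities of 7 and 5. For MGMT, the leftmost gene, the sensitive arrays lie between 2542 and 2961 and the resistant ones between 10.6 and 13.7.

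With the pseudocount of 16 the gains reached less far in size. ADGRE1, an adhesion G protein-coupled receptor known as a macrophage surface marker, stood at 3.14, 13.3 and 4.52 in sensitive arrays and at 278 to 422 (median 359) in resistant ones. The rise was 3.99 ± 0.16 (adjusted p = 2.40e-08), and the naming rule required that the groups not overlap. CCL2, the chemokine that attracts monocytes, stood at 3.76, 14.2 and 9.02 against 218 to 432 (median 338), and rose by 3.76 ± 0.23 (adjusted p = 9.23e-07). IGSF3, an immunoglobulin superfamily membrane protein, rose by 2.94 ± 0.12 and MISP, an actin-binding protein that positions the spindle, by 2.61 ± 0.14. The paclitaxel minus docetaxel differences of these genes were -0.12 and 0.02 and did not pass the test. IL7R, the interleukin 7 receptor chain, was under 1 in each sensitive array and at 79.6 to 183 in the resistant ones, a difference of 3.09 ± 0.15 that a pseudocount of 16 compresses strongly. Others of the 12 largest gains were ADGRF5 (2.74 ± 0.20), the end-joining DNA polymerase POLM (2.66 ± 0.24), the apolipoprotein APOC1 (2.46 ± 0.23), the retinoblastoma-like RBL2 (2.24 ± 0.18), MAGEC1, TFF3 and WDR3. The ranking rested on the smaller of the line differences, where WDR3 at 2.18 was the last gene named and VPS35 at 2.15 the first left out. Among losses IL6 at 3.77 was last and FCGRT at 3.70 was the first beyond.

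Genes of antigen presentation by MHC class II included the deepest loss of any gene. Of 16 measured members 9 fell, 1 rose and 6 were not called, with a median difference of -0.71. With multi-transcript probe sets dropped 4 of 10 fell. Over all genes 12.7% were higher and 12.6% lower, with a median of -0.04, which is the background of this and all later list counts. CD74, the invariant chain that escorts class II molecules to the endosome, stood at 11130, 11990 and 10120 in sensitive cells and at 27.2 to 61.2 (median 50.6) in resistant cells. It fell by 7.41 ± 0.19 (adjusted p = 5.33e-10), the largest difference of any gene tested with the pseudocount of 16. The peptide-presenting chains HLA-DRB1 and HLA-DRA followed. HLA-DRB1 fell from 4631, 4441 and 3094 to between 74.2 and 124 (median 91.8), by 5.2 ± 0.18. HLA-DRA stood at 622, 504 and 422 against 0.01 to 4.31, a difference of -4.95 ± 0.15, and its second probe set gave -4.66. Resistant arrays lay below all sensitive arrays in each of these genes, as the rule that named them required. HLA-DPA1 fell by 2.33 ± 0.22 (-1.61 and -0.15 in its other probe sets), HLA-DPB1 by 2.02 and HLA-DMA, part of the catalyst of peptide loading, by 2.03 ± 0.19. HLA-DMB (-0.74), RFXANK, a subunit of the factor that binds class II promoters (-0.80), and the protease CTSS (-0.68) fell by less. The call of HLA-DMB was lost without sensitive replicate 1 (adjusted p = 0.101). RFX5, another subunit of that factor, rose by 0.56, a call lost without sensitive replicate 2 (adjusted p = 0.0522). Class II genes are read through a conserved promoter module that includes an inverted CCAAT box bound by NF-Y. The motif CCAAT, searched on both strands in 250 bases before to 50 after the start site, was in 10 of the 13 class II genes with a RefSeq promoter and in 35.7% of all 27305 promoters of that table. Of the 10 with the motif 5 fell, and of the 3 without it 2 fell. The match is a description and not a site shown to be bound. It took either orientation, so it is not a count of the inverted box. In the CD74 sequence below the motif reads CCAAT on the strand of the gene, and the inverted form, ATTGG, is absent. The CD74 sequence before the start site (chr5:150412911-150413160, minus strand, GRCh38.p14) is shown because this gene changed most, with CCAAT in capitals.
CD74: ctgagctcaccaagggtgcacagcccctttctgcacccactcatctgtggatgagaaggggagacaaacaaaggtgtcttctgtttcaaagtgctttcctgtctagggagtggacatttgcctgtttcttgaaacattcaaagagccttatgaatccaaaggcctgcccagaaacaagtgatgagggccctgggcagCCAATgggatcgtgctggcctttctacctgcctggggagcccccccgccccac

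MHC class I presentation changed less. Of 18 measured genes 5 fell, 2 rose and 11 were not called (median -0.20), with HLA-B at -0.67, HLA-G at -0.74 and the immunoproteasome subunit PSMB10 at -0.60, while the chaperones CANX (1.28 ± 0.16) and PDIA3 (0.84 ± 0.13) rose. Class I genes are near-identical in sequence, so their probe sets can share signal. Interferon-stimulated genes split. Of 38 measured 9 rose and 6 fell (median 0.18). BST2, the tetherin that holds viruses on the cell surface, fell from 655, 592 and 547 to between 6.5 and 47.0 (median 20.2), by 4.14 ± 0.17 (adjusted p = 3.35e-08). IFI27 fell by 3.36 ± 0.19 and IFITM1, a membrane protein that restricts viral entry, by 2.37, whereas the kinase EIF2AK2 (1.54) and the guanylate-binding proteins GBP1 (1.34) and GBP2 (0.93) rose. With multi-transcript probe sets dropped EIF2AK2 was at 0.41 (adjusted p = 0.0673). The transcription factor IRF1 fell by 0.85. Of 11 defining blood cell markers measured none was called, with a median of -0.06. For 5 of the 11 the mean intensity was under 32 in all 3 groups, so a fall in them could hardly be seen. The summed intensity of the 11 was 2261 to 3426 in sensitive, 2859 to 3258 in docetaxel-resistant and 2424 to 2680 in paclitaxel-resistant arrays.

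Inflammatory cytokines and targets of NF-kB, the transcription factor of inflammatory signalling, had more losses than gains. Of 36 measured 16 fell, 3 rose and 17 were not called, with a median of -0.37. IL6, a cytokine known to be made by this line, stood at 233, 549 and 421 in sensitive and at 10.1 to 19.8 (median 13.8) in resistant arrays, and fell by 3.78 ± 0.25 (adjusted p = 1.88e-06). CXCL1, a neutrophil chemokine, stood at 766, 1651 and 1420 against 88.2 to 120 (median 97.7), and fell by 3.46 ± 0.25. CXCL2 fell from 108, 221 and 220 to between 6.48 and 17.7, by 2.81 ± 0.22. For all 3 cytokines sensitive replicate 1 was the lowest of its group, yet above every resistant array. CXCL8 differed by -2.03 ± 0.30 with overlapping deposited intensities, since paclitaxel-resistant replicate 1 was at 236 and the lowest sensitive array at 203, while its normalized values did not overlap. ICAM1, to which leukocytes adhere, fell by 2.10 ± 0.17, the inhibitor NFKBIE by 1.17, TRAF1 by 1.08, IL32 by 0.95 and CSF1 by 0.87. NFKBIA (-0.58), RELB (-0.55) and TNFAIP3 (-0.43) lost their calls when some single arrays were left out, with adjusted p up to 0.124, 0.150 and 0.106. CCL2, IL7R and the cytokine LIF (0.97) were the members that rose. The NF-kB motif, GGG followed by any 2 bases and TTTCC, searched on both strands in the same promoter window, was in 1.92% of all promoters of the RefSeq table. A promoter entry was found for 28 of the 36 list genes, too few for a comparison over the list, and that check is void. Among those 28, 11 hold the motif, of which 7 fell, and 6 of the 17 without it fell. The motif of the 7 is shown in capitals within 30 bases, written 5′ to 3′ on the strand of the gene (GRCh38.p14). The windows lie at chr4:73869304-73869333 (plus strand), chr4:74099254-74099283 (minus), chr4:74038749-74038778 (minus), chr16:3065294-3065323 (plus), chr7:22727117-22727146 (plus), chr14:35404811-35404840 (minus) and chr6:137867182-137867211 (plus). The 3 CXCL genes, which are close paralogs, share the same 10 motif letters, while NFKBIA and TNFAIP3 carry the motif on the opposite strand. No CCAAT motif overlaps these windows.
CXCL1: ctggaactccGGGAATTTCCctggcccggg
CXCL2: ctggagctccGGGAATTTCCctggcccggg
CXCL3: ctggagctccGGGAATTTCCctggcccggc
IL32: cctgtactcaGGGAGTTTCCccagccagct
IL6: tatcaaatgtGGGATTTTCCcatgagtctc
NFKBIA: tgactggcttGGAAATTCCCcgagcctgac
TNFAIP3: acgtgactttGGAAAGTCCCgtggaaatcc

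Cholesterol synthesis rose in both lines. Of 20 measured genes 11 rose, 1 fell and 8 were not called, with a median of 0.59. HMGCS1, which makes the precursor of mevalonate, stood at 25.4, 6.66 and 23.7 in sensitive and at 72.5 to 248 (median 155) in resistant arrays, and rose by 2.26 ± 0.26 (adjusted p = 0.000112), with 1.54 in its second probe set. The sterol oxidase MSMO1 stood at 615, 149 and 416 against 1134 to 2154 (median 1318), a rise of 1.95 ± 0.28 (adjusted p = 0.000430). Neither gene overlapped between the groups, and in both sensitive replicate 2 was the lowest array. ACAT2, which condenses acetyl-CoA, rose by 1.44, the sterol reductase HSD17B7 by 1.12 ± 0.11, FDPS, which makes farnesyl diphosphate, by 0.93, INSIG1 by 0.78 and the sterol-sensing transcription factor SREBF2 by 0.61. SC5D rose by 1.18, but 0.06 with multi-transcript probe sets dropped. IDI1 (1.15) lost its call with single arrays left out (adjusted p up to 0.142), as did the 1 fallen member PMVK (-0.46, up to 0.109). Of the 15 measured genes of fatty acid synthesis 5 rose and 1 fell (median 0.31). Among them were ACACA, the first committed enzyme (1.39 ± 0.12), and FASN, the fatty acid synthase (1.45 ± 0.20). The dimmer probe sets of ACACA and FASN gave -0.55 and -0.08, so the rise rests on 1 probe set each. The fallen member, AGPAT2 (-0.40), was lost without sensitive replicate 2 or 3, docetaxel-resistant replicate 3 or paclitaxel-resistant replicate 1, and 2 members fell without sensitive replicate 1. Promoters of sterol genes are known to carry NF-Y sites beside those of SREBP. The motif CCAAT was in 15 of the 18 cholesterol genes with a RefSeq promoter, against 35.7% of all promoters. Of the 15 with it 9 rose, and of the 3 without it 1 rose. The motif TCACNCCAC, a form of the SREBP site, was in 1 of the 18 and in 1.15% of all promoters. The CCAAT motif of the following 4 risen genes is shown in capitals (as ATTGG where it lies on the opposite strand) within 30 bases, 5′ to 3′ on the strand of the gene, at chr5:43313550-43313579 (minus strand), chr4:165327472-165327501 (plus), chr1:162790638-162790667 (plus) and chr1:155308678-155308707 (plus) of GRCh38.p14.
HMGCS1: agtttccttttgATTGGtagaagccggact
MSMO1: gcggtgccgaccATTGGctggctctgcagg
HSD17B7: tggcggactgagATTGGagggatcagctca
FDPS: ttcagcccttccATTGGtcgtccgtcacag

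Heat shock proteins also rose. Of 20 measured chaperones and co-chaperones 11 rose, 2 fell and 7 were not called, with a median of 0.46. HSPA4, a nucleotide exchange factor of HSP70, stood at 196, 57.2 and 86.2 in sensitive and at 309 to 673 (median 382) in resistant arrays and rose by 1.83 ± 0.28 (adjusted p = 0.000609). Its other 3 probe sets gave 1.81, 1.58 and 1.44. The co-chaperones DNAJB4 (1.80, made up of 2.89 in the docetaxel and 0.71 in the paclitaxel line) and DNAJA1 (1.47), HSPH1 (1.5), the testis-enriched HSPA2 (1.26), the mitochondrial chaperonin HSPD1 (1.20) and the mitochondrial HSPA9 (1.05) rose as well. HSP90AA1, the inducible cytosolic HSP90, was at 1.47 with 1.63 to 1.68 in its other probe sets, but its call was lost without sensitive replicate 2 (adjusted p = 0.0574) and without sensitive replicate 3 (0.0861). The fallen members DNAJB1 (-0.32) and DNAJB6 (-0.51) lost their calls without some single arrays (adjusted p up to 0.119 and 0.072), and with any 1 array left out at most 1 fallen member remained. Of 30 genes of the endoplasmic and integrated stress responses 7 rose and 5 fell (median 0.01). The endoplasmic chaperone HSP90B1 (1.49 ± 0.19) and the stress sensor EIF2AK3 (1.29 ± 0.15) were among the higher. DDIT3 (-0.95) and DDIT4 (-1.27) were among the lower. As the mean of its 2 probe sets HSP90B1 was at 0.84. Of the 11 risen heat shock genes 7 had a positive weight on the within-group axis and 6 were the lowest of their group in sensitive replicate 2, and for the 11 risen cholesterol genes these numbers were 7 and 7, beside 74.9% and 59.7% of all genes higher in both lines. Of the fallen genes 15 of 16 in the cytokine list and 8 of 9 in the class II list had a negative weight. The part of that axis in these lists was not tested. The risen heat shock and cholesterol members were 10 and 11 without sensitive replicate 2, and 8 and 9 without sensitive replicate 3. With multi-transcript probe sets dropped 6 of 11 heat shock and 5 of 13 cholesterol genes rose.

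Of the routes by which taxanes are known to lose effect, the efflux pump ABCB1 changed most. It stood at 6.24, 5.43 and 10.4 in sensitive, 862, 851 and 1363 in docetaxel-resistant and 87.4, 53.1 and 48.4 in paclitaxel-resistant arrays, so that all 6 resistant arrays exceeded the sensitive ones and the lines did not overlap. The pooled rise was 3.56 ± 0.17 (adjusted p = 1.07e-07), made up of 5.41 and 1.72, and the difference between lines was -3.69 (adjusted p = 1.69e-06). Of 17 drug transporters 2 rose, 4 fell and 11 were not called (median -0.05). The share in the common response was 35.3%, against 25.3% of all genes. Without sensitive replicate 1 or 3, docetaxel-resistant replicate 2 or paclitaxel-resistant replicate 3 the fallen members were 2, and without sensitive replicate 1 the risen member was 1. The nucleoside transporter SLC29A1 fell by 1.47 ± 0.14, while ABCC1 (-0.23, 95% interval -0.51 to 0.05) and ABCG2 (-0.11, interval -0.42 to 0.20) missed the threshold. Among the 16 measured tubulins only TUBA4A was called, with 630, 434 and 457 in sensitive and 177 to 248 (median 214) in resistant arrays, a fall of 1.21 ± 0.13. With median centring or no normalization 3 or 2 tubulins were lower. The beta-tubulins TUBB3 (-0.02, interval -0.26 to 0.22) and TUBB2A (-0.12, interval -0.38 to 0.14) were not called. TUBB6 (-0.28, adjusted p = 0.0845) was not called either, but passed with a pseudocount of 64 (-0.27, adjusted p = 0.0189), and its normalized values did not overlap between the groups.

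Proteins that bind or assemble microtubules had 10 higher and 2 lower of 38 (median 0.21). MAP1B, which stabilizes axonal microtubules, rose by 1.22, and CKAP5, which adds tubulin to growing ends, by 1.06. TBCC, a tubulin-folding cofactor, fell by 1.26 ± 0.13 and the depolymerizing kinesin KIF2C by 0.78 ± 0.12. Several of the smaller gains were unstable. The 10 became 4 without sensitive replicate 2, 5 without docetaxel-resistant replicate 2, and 6 without sensitive replicate 3 or paclitaxel-resistant replicate 2 or 3. MAPT, the tau protein that competes with taxanes on microtubules, was at 0.40 ± 0.12 (adjusted p = 0.0307), a call lost without sensitive replicate 2 (adjusted p = 0.1) and other single arrays. STMN1, which sequesters tubulin, stood at -0.22 (interval -0.47 to 0.02) and was not called.

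Apoptosis regulators had 10 lower and 4 higher of 32 (median -0.16). BNIP3 fell by 1.25 ± 0.16, the death receptor adaptor FADD by 0.96 ± 0.12, from 909, 777 and 679 to between 335 and 525, and the pore-forming BAX by 0.94 and BAK1 by 0.75. FADD did not overlap between the groups. The survival protein BCL2L1 fell by 0.44 ± 0.11, a call lost when the dimmest and the brightest array by median were dropped (adjusted p = 0.0644). BCL2 (-0.21, interval -0.48 to 0.05) was not called. MCL1 stood at 0.51 ± 0.17 (adjusted p = 0.0470), lost its call without sensitive replicate 2 (adjusted p = 0.213) among other arrays, and was at -0.01 as the mean of its probe sets. The higher count of 4 ran from 0 to 5 when single arrays were left out, with 0 without sensitive replicate 3, 1 without sensitive replicate 2 and 2 without any 1 docetaxel-resistant array. The CDK inhibitor p21, encoded by CDKN1A, was lower by 0.54 ± 0.15 (adjusted p = 0.0223). Its deposited intensities did not overlap between the groups but its normalized values did, and it lost its call without sensitive replicate 2 (adjusted p = 0.0888) and without sensitive replicate 3 (0.0851).

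Of 37 mitosis and spindle checkpoint genes 5 rose and 7 fell (median -0.02), beside 12.7% and 12.6% of all genes and a median of -0.04, so the list stood near the background. NUSAP1, a spindle protein, rose by 1.47 ± 0.24, and CDC20, which activates the anaphase-promoting complex, fell by 0.78 ± 0.12 along with AURKB (-0.64) and MAD1L1 (-0.72). Of 37 DNA replication genes 6 rose and 10 fell (median -0.02), with the polymerase subunit POLA1 at 1.32 ± 0.18 and the G1 kinase CDK4 at -0.78 ± 0.12. Without sensitive replicate 2 the risen members were 3 in each of these lists. The fallen replication genes were 5 without sensitive replicate 3, 6 without sensitive replicate 1 or docetaxel-resistant replicate 1, and the fallen mitosis genes 4 without sensitive replicate 3. DNA repair had 9 higher and 6 lower of 35 (median 0.04), in which POLM and the mismatch repair protein MSH6 (1.46) rose and XRCC3 (-0.78), of homologous recombination, fell beside MGMT. DNA methylation and silencing machinery had 5 higher and 2 lower of 27 (median 0.00), a share of 25.9% near that of all genes, with the histone methyltransferase SUV39H1 at -0.97 ± 0.14. Without paclitaxel-resistant replicate 1 the 5 became 3, and sensitive replicate 2 left out gave 2 higher and 4 lower. MBD4, at 0.96 ± 0.17, was at -0.16 with multi-transcript probe sets dropped.

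Losses outnumbered gains in the lists of glycolysis, of glutathione metabolism and of lysosomal genes, though most members of each were not called lower. Of 34 genes of glycolysis and the hypoxia response 14 fell and 2 rose (median -0.29). NDRG1, a hypoxia-induced gene, fell from 2494, 2452 and 2526 to between 570 and 1037 (median 710), by 1.69 ± 0.13 (adjusted p = 6.49e-06), without overlap. PFKFB3, which drives glycolytic flux, fell by 1.31 ± 0.13 and VEGFA, the endothelial growth factor, by 0.85, whereas the aldolase ALDOC rose by 1.71. Of 40 genes of glutathione metabolism, aldo-keto reductases and NRF2 targets 15 fell and 2 rose (median -0.16). GPX3, the secreted glutathione peroxidase, fell from 873, 857 and 989 to between 183 and 288 (median 230), by 1.96 ± 0.16. The reductase AKR1C3 fell by 1.55 and GSTP1, the main glutathione transferase of many tumours, by 1.18 ± 0.14. AKR1C1 (-0.78) and AKR1C2 (-1.11) are near-identical to AKR1C3 in sequence, and AKR1C1 was at -0.01 with multi-transcript probe sets dropped. The risen members were 4 without sensitive replicate 1 and 1 without sensitive replicate 3 or docetaxel-resistant replicate 1. Of 32 lysosomal genes 11 fell and 3 rose (median -0.26), among them CTSF (-3.45 ± 0.14), CTSD (-1.02) and LAMP1 (-0.85). ASAH1, an acid ceramidase, stood at 1.53 ± 0.18 in its kept probe set and at -0.31 with multi-transcript ones dropped. Oxidative phosphorylation had 6 higher and none lower of 35 (median 0.01), with NDUFV2 at 1.24 ± 0.16 and UQCRC2 at 1.19 ± 0.21, but 4 higher and 5 lower after median centring, and 1 lower without sensitive replicate 2 or 3. Ribosomal proteins had 1 higher of 22 (median -0.04), RPS6 at 0.43 ± 0.12, which lost its call without sensitive replicate 2 (adjusted p = 0.116), while 2 were higher without sensitive replicate 1 and 3 lower after median centring.

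Matrix proteases fell more often than they rose, and integrins and laminins had members in both directions. Of 34 matrix proteases and inhibitors 11 fell and 3 rose (median -0.21). The inhibitor TIMP3 fell from 569, 372 and 482 to between 18.2 and 80.6 (median 34.7), by 3.24 ± 0.13, and its other 3 probe sets gave -3.24 to -3.45. The plasminogen activators PLAT (-1.99) and PLAU (-0.98), the membrane protease MMP14 (-1.26) and ADAM8 (-1.62 ± 0.16) fell, and the shedding proteases ADAM17 (1.62) and ADAM9 (1.56) were higher. The call of ADAM9 was lost without sensitive replicate 2 (adjusted p = 0.0618), an array without which 1 of the 3 risen members was left. Of 34 collagens and other matrix proteins 11 fell and 6 rose (median -0.13), with 7 falling without sensitive replicate 3. SPARC, a collagen-binding matrix protein, stood at 16.2, 10.2 and 20.3 against 93.9 to 275 (median 164) and rose by 2.44 ± 0.12 (adjusted p = 1.62e-07), while tenascin TNC (-1.43), COL7A1 (-1.21) and COL6A3 (-1.20) fell. Integrins, laminins and focal adhesion genes had 8 higher and 5 lower of 31 (median 0.00), where the laminin chains LAMC1 (1.13 ± 0.11) and LAMB1 (-1.30 ± 0.12) went in opposite directions.

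Actin-bundling and contractile genes had 11 higher and 2 lower of 28 (median 0.42), and 7 higher without sensitive replicate 2. The bundling protein LCP1, usual in blood cells, rose by 2.73 ± 0.18 and the actin-membrane linker RDX by 1.37. TPM1 stood at 1.44 ± 0.14 and at -0.16 with multi-transcript probe sets dropped. Epithelial junction and keratin genes had 8 higher and 3 lower of 30 (median 0.13). P-cadherin CDH3 (1.61), desmoplakin DSP (1.52) and the tight junction protein TJP1 (1.19) rose, and periplakin PPL fell from 87.6, 57.2 and 107 to between 0.01 and 5.94, by 2.49 ± 0.14. The lower count was 6 without sensitive replicate 1 and 5 without sensitive replicate 2. Mesenchymal genes had 5 higher and 6 lower of 27 (median -0.08). Cadherin 11 CDH11 (1.71) and the inhibitor of differentiation ID3 (1.63) rose, and NNMT, S100A4 (-2.26 ± 0.13), fibronectin FN1 (-1.19) and vimentin VIM (-0.67) fell. With multi-transcript probe sets dropped FN1 was at -0.14 (adjusted p = 0.507).

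Receptor tyrosine kinases and their ligands had 12 higher and 5 lower of 42 (median -0.04), beside 12.7% and 12.6% of all genes and a median of -0.04. MET, the receptor of hepatocyte growth factor, rose from 131, 38.5 and 57.9 to between 255.6 and 635 (median 362), by 2.14 ± 0.29 (adjusted p = 0.000293), without overlap. Its other probe sets gave 1.45, 1.44 and 0.26. EGFR stood at 1.52 ± 0.19 in the kept probe set, at 0.52 to 0.90 in 3 others and at -0.02 and -0.10 in a further pair. The fibroblast growth factor receptor FGFR3 rose by 1.07 ± 0.13 in its kept probe set, but by 0.44 as the mean of its 2 probe sets. FGFR1 fell by 0.76 and the ligand TGFA by 0.92. Genes of ERK feedback, which the pathway induces and which then restrain it, had 7 lower and 2 higher of 23 (median -0.31). SPRY2 fell by 1.57 ± 0.13, JUN by 1.08 ± 0.14 and the phosphatase DUSP4 by 0.90, while the phosphatase DUSP1 rose by 0.93.

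Notch and Wnt genes had 6 higher and 7 lower of 32 (median -0.09), a share of 40.6% against 25.3% of all genes. The Notch target HEY1 fell by 2.29 ± 0.15 and the frizzled receptor FZD1 by 1.1, and the ligand WNT5A (1.48 ± 0.12) and the receptor FZD6 (1.64) rose. Another Notch target, HES1, was at 1.16, but at -0.21 with multi-transcript probe sets dropped. Adhesion G protein-coupled receptors had 5 higher and 2 lower of 22 (median 0.05), a share of 31.8% against 25.3% of all genes. The higher ones were ADGRE1, ADGRF5, ADGRG6 (2.31), ADGRL2 (2.05) and CELSR2 (1.00). Cancer-testis antigens, which normal tissues outside the germ line rarely express, had 7 higher and 2 lower of 23 (median 0.01). MAGEC1 was at 0.01, 1.80 and 2.51 in sensitive arrays and at 112 to 321 (median 178) in resistant ones, a rise of 3.47 ± 0.11 (adjusted p = 4.31e-09), and MAGEA1 rose by 2.59. SPANXB1 went the other way, from 3710, 1873 and 2756 to between 16.2 and 25.4, and fell by 6.10 ± 0.15 (adjusted p = 4.56e-10). MAGEA, SSX, GAGE and SPANX genes have near-identical copies that probe sets may not separate. The other fallen member, GAGE1 (-0.41), lost its call without any 1 sensitive array and without docetaxel-resistant replicate 1 (adjusted p up to 0.0664).

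**Figure D3:**
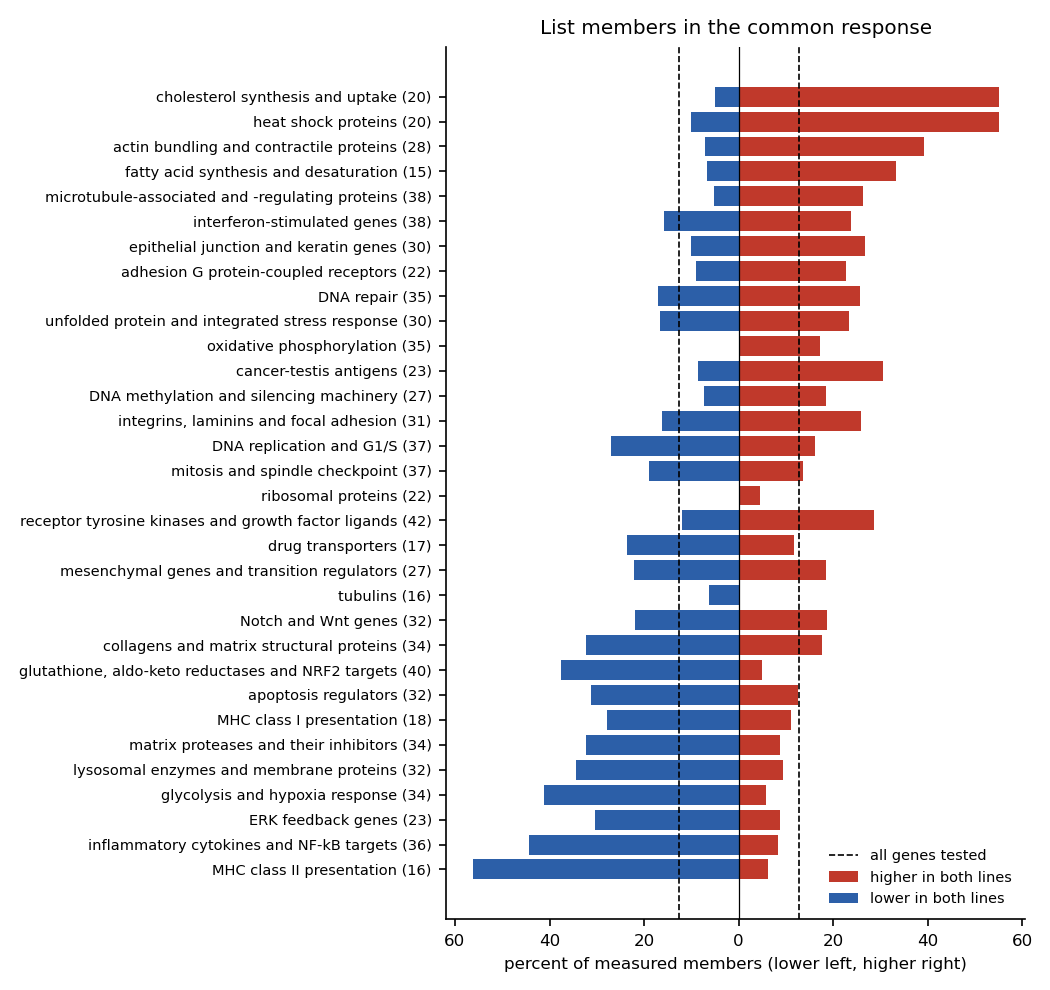
Percent of the measured members of each of the 32 gene lists that were higher (red, right) or lower (blue, left) in both resistant lines, ordered by median difference, with the number measured in parentheses and the shares of all genes (12.7% and 12.6%) as dashed lines. Cholesterol synthesis and heat shock proteins have 11 of 20 members to the right, and MHC class II has 9 of 16 to the left.

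The labelled cell type was checked against marker genes. Of 10 genes known for this basal, mesenchymal line 2 rose (SPARC and EGFR) and 3 fell (VIM, the membrane linker MSN and TGFBI), with a summed intensity of 12490 to 15890 in sensitive and 10050 to 11510 in resistant arrays. Of 13 luminal breast genes 5 rose and none fell (median 0.19): TFF3 (3.20 ± 0.24), TFF1 (1.58), AGR2 (0.93), FOXA1 (0.90) and SPDEF (0.78). TFF3, a secreted trefoil peptide, stood at 27.0, 39.3 and 39.4 in sensitive, 349, 352 and 176 in docetaxel-resistant and 1031, 717 and 811 in paclitaxel-resistant arrays. Of 11 fibroblast markers FBN1 and PDGFRB were higher (median -0.12), and their summed intensity was 400 to 497.5 in sensitive, 631 to 775 in docetaxel-resistant and 504 to 581 in paclitaxel-resistant arrays. Among 6 melanocytic markers the transcription factor MITF rose by 2.10 (median -0.14), with sums of 206 to 250.3, 380 to 478 and 349 to 501. Both sums were higher in every resistant than in any sensitive array, but 9 of the 11 fibroblast and 5 of the 6 melanocytic markers were not called. The luminal sums were 6828 to 8098 in sensitive, 7505 to 8681 in docetaxel-resistant and 8279 to 8933 in paclitaxel-resistant arrays. Among 8 endothelial markers PECAM1 (-1.02) and TIE1 (-0.44) were lower (median -0.10), TIE1 losing its call with single arrays left out (adjusted p up to 0.113). The endothelial sums were 217 to 332 in sensitive, 189 to 216 in docetaxel-resistant and 169 to 212 in paclitaxel-resistant arrays. The part of other cells in these differences was not tested, and in bulk RNA fewer cells of a kind and less RNA per cell cannot be told apart.

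The lines were also compared with each other. Membership of the common response required the same sign in each line, so it is not independent of this contrast and leaves out genes whose lines diverge most. Over all genes 238 (1.99%) differed between the paclitaxel- and docetaxel-resistant arrays. Among the 3026 genes of the common response 115 did (3.8%), 57 of them larger in the docetaxel and 58 larger in the paclitaxel line. The 95% interval of the line difference lay within 1.5-fold in 1450 of the 3026 (47.9%), and in the rest the data allow a larger difference. That 115 is sensitive to single arrays: it was 35 without docetaxel-resistant replicate 2, 48 and 57 without docetaxel-resistant replicates 1 and 3, and 73, 51 and 47 without paclitaxel-resistant replicates 1, 2 and 3. In 17 called genes the signs differed, and they were left out of the common response. ABCB4, beside ABCB1 on chromosome 7, was one of them, with 1.95 in the docetaxel and -0.11 in the paclitaxel line. In 8 genes each line passed the test in opposite directions. GUSB, a lysosomal glucuronidase used at times as a reference gene, stood at 548, 541 and 564 in sensitive, 309, 340 and 302 in docetaxel-resistant and 945, 1083 and 829 in paclitaxel-resistant arrays. AOX1, an aldehyde oxidase, was at 1.01 with docetaxel resistance and -1.18 with paclitaxel resistance, SQOR, a sulfide oxidizing enzyme, at 0.68 and -0.54 in this order, RPH3AL at -0.70 and 0.53 and MAP3K7CL at 1.06 and -0.77.

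Genes of the common response were not spread evenly over the chromosomes. On chromosome 18 32.2% of 174 tested genes were higher and 2.87% lower, and on chromosome 21 24.8% of 137 were higher and 6.57% lower. Chromosomes 3, 5, 15 and 16 had 19.1%, 18.7%, 18.6% and 17.2% higher. On chromosome 10 5.99% of 451 genes were higher and 24.6% lower, and chromosomes 11, 14, 12 and 19 had 20.2%, 19.9%, 18.5% and 17.9% lower. Copy number was not measured. In windows of 20 measured neighbours the most extreme were LAMA1 to PSMG2 on chromosome 18, with 13 higher and 1 lower (median 0.75), C1orf50 to PLK3 on chromosome 1, with 14 lower and none higher (median -0.49), and FTSJ1 to PRICKLE3 on the X chromosome, with 14 lower and none higher (median -0.85). The longest unbroken runs held 6 genes. One was on chromosome 22, from RBFOX2 to TXN2 (median 1.07), and took in MYH9 and the apolipoproteins APOL1, APOL2 and APOL3.

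**Figure D4:**
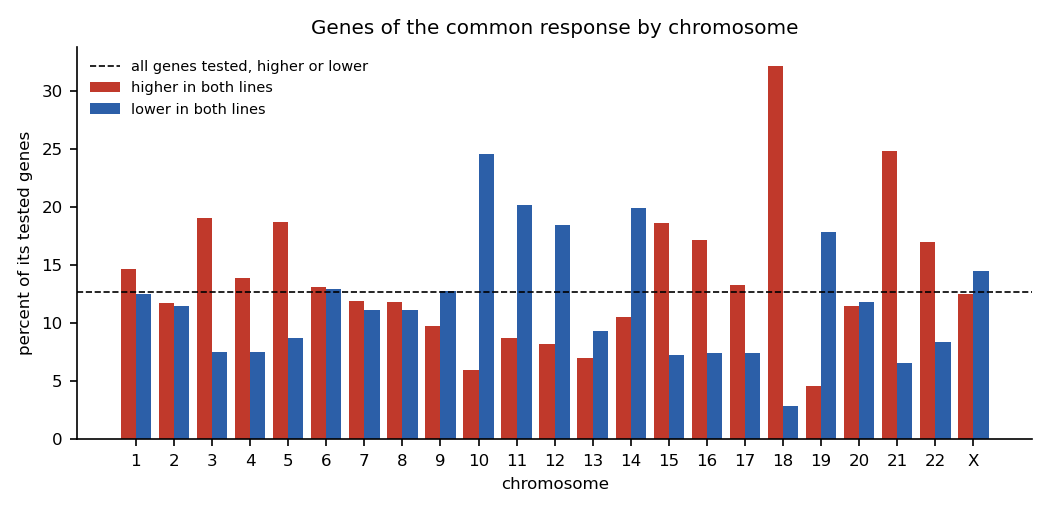
Percent of the tested genes of each chromosome that were higher (red) or lower (blue) in both resistant lines; the dashed line is the share over all genes, 12.7% higher. Chromosome 18 has 32.2% higher and 2.87% lower, and chromosome 10 has 5.99% higher and 24.6% lower.

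A stretch of chromosome 16, picked out after its values were seen, held several of the strongest gains, with genes that were not called among them. From SHCBP1 to AKTIP 24 genes were measured, of which 11 rose and none fell. ITFG1 stood at 93.0, 48.8 and 83.1 in sensitive and at 306 to 530 (median 379) in resistant arrays and rose by 2.08 ± 0.16, the same in each line. RBL2 (2.24 ± 0.18), the retromer subunit VPS35 (2.20 ± 0.30), the deubiquitinase CYLD (1.90 ± 0.19), the phosphorylase kinase subunit PHKB (1.86 ± 0.17), the bromodomain protein BRD7 (1.16 ± 0.15) and the co-chaperone DNAJA2 (1.05 ± 0.15) rose with it. With multi-transcript probe sets dropped CYLD was at 0.17 (adjusted p = 0.452). Of the other 13 genes 10 had no array at 64 or more. Risen genes pass this limit through their resistant arrays, so it does not show that a rise in those 10 was out of sight. AKTIP, which rose, had a mean of 22.4 in sensitive and 66.7 in resistant arrays, and CYLD 20.9 and 136.6. Of the 20 measured genes before the stretch none rose and 3 fell, of the 20 after it 3 rose and 1 fell, and over the rest of chromosome 16 15.8% of 500 rose.

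**Figure D5:**
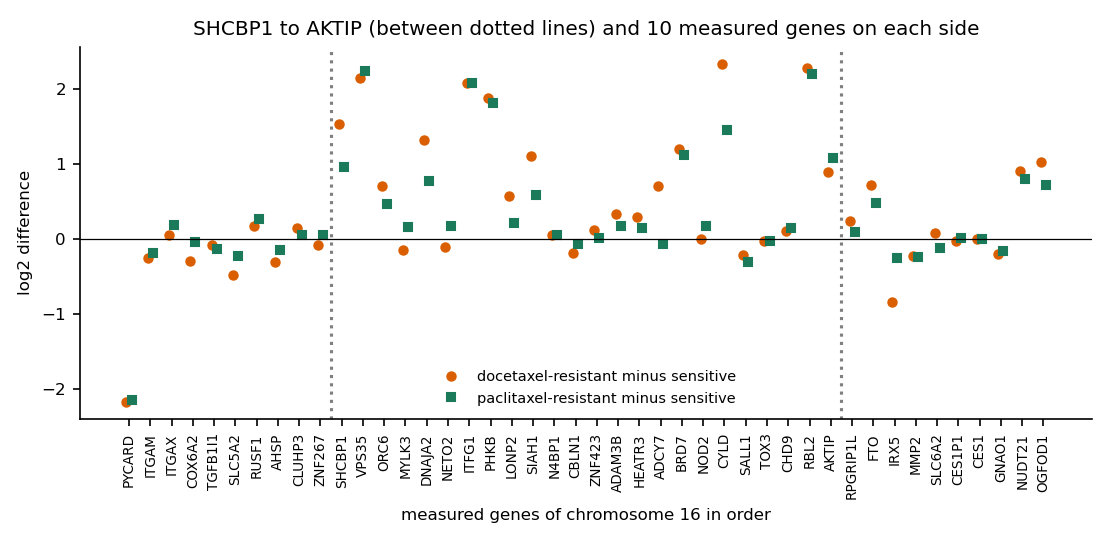
Log2 difference from sensitive cells of the docetaxel-resistant (circles) and paclitaxel-resistant (squares) line for the measured genes of chromosome 16 in order, with SHCBP1 to AKTIP between dotted lines and 10 genes on each side. Within the stretch 11 of 24 genes rose, among them ITFG1 at 2.08 in both lines.

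The higher and the lower genes differed in a property that the test did not use. The median RefSeq gene span was 44.6 kb for the 1521 higher genes, 19.5 kb for the 1505 lower ones and 28.2 kb for genes outside the common response. The number of CpG in the 250 bases before to 50 after the start site had a median of 27.0 in both directions. At least 10 were found in 92.0% of higher and 87.0% of lower genes with a promoter entry. Over all promoters of the RefSeq table the median was 14.0 and the share 56.0%. That table also holds promoters of many genes that were not tested, so this gap cannot be read as a property of the common response. Outside the common response 7015 of 8937 genes had an entry, too few for a comparison. Where a gene of the common response had further probe sets, the second brightest was compared with the one kept. It had the same sign in 616 of 723 higher genes (85.2%) and in 479 of 533 lower ones (89.9%), and where at least 1 array reached a log2 intensity of 7 in 325 of 338 (96.2%) and 219 of 223 (98.2%). Over single probe sets 4890 of 22215 (22%) passed the same test.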

How the data were processed

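Total RNA of 9 cultures was measured on 1-colour expression arrays with 22215 human probe sets, beside 68 control probe sets that were left out. The deposited values are linear intensities, made with PLIER in Affymetrix Expression Console 1.1.2 per the submitters' processing notes; for other settings: not given in the sources used here. Here log2(intensity + 16) was quantile normalized, and each of 11963 genes was represented by its probe set of highest mean. Of the probe sets 19065 name 1 gene, and the 1043 with several and 2107 with none were not named. A model with 3 group means was fitted in limma 3.58.1 (R 4.3.3), with Benjamini-Hochberg adjustment over all genes, and genes at an adjusted p under 0.05 were called. Tables and plots were made with Python 3.11.15, pandas 2.3.3 and matplotlib 3.10.9. In simulated data 67, 67 and 66 of 11963 genes had known changes of 0.5, 1 and 2 log2 units. Of these 29.9%, 83.6% and 100% were recovered, and 6 of 148 calls were unchanged genes. The simulated noise was independent between arrays and few genes changed. In the data 25.3% of genes were in the common response and 1 axis was shared within groups, so these rates do not carry over to them. Precision is limited by how few arrays there were, and the median standard error was 0.14.

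Genes named by rule were the 12 largest gains and 12 largest losses by the smaller line difference, up to 2 per list by adjusted p, 12 set genes of taxane response and up to 5 of opposite sign. Other list members, markers and the chromosome 16 genes were picked for naming once values were known. The members and the 32 gene lists were chosen with earlier results of these data known. Alternatives changed the pseudocount, normalization, probe set choice, filter, spread estimate, replicate block and arrays used. List counts and members under these settings, the second probe set, gene span, neighbouring genes and the within-group axis were added after seeing the data.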

Additional observations from a re-analysis of the deposited data

Results flagged for a closer look

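Among 89 named genes 5 had a resistant array apart from the other 5, by a gap that took up more of the 6 arrays' log2 range than Dixon's 95% critical value allows. Chance alone gives such a gap in about 1 of 20 groups. The gap was 0.681 of the range for POLM, with docetaxel-resistant replicate 3 lowest at 129.9, and 0.678 for SPANXB1, with paclitaxel-resistant replicate 1 lowest at 16.2. It was 0.669 for IFI27, with docetaxel-resistant replicate 3 lowest at 4.86, and 0.682 for CTSF, with docetaxel-resistant replicate 2 lowest at 1.58. PFKFB3 had paclitaxel-resistant replicate 2 highest at 224.4, with a gap of 0.646. All 5 genes kept a clear separation from the sensitive arrays, which for POLM and SPANXB1 the naming rule required.

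Among named genes of the common response 11 differed between the lines in limma's test of paclitaxel minus docetaxel. ABCB1 differed by -3.69 (adjusted p = 1.69e-06), LCP1 by -2.89 (3.93e-05), WDR3 by -1.77 (0.00896), MAGEC1 by -1.11 (0.00124), SPARC by -1.09 (0.00223) and HSPA2 by -0.69 (0.0446), all larger gains in the docetaxel line. TFF3 differed by 1.64 (adjusted p = 0.0115), a larger gain in the paclitaxel line. ADAM8 differed by 1.89 (0.000266), S100A4 by 1.77 (0.000132), TIMP3 by 1.15 (0.00233) and CDC20 by 0.68 (0.0308), each a deeper loss in the docetaxel line. A further 5 genes were named because their lines went in opposite directions, so their line differences are a description with no test: -2.19 for AOX1, -1.83 for MAP3K7CL, 1.61 for GUSB, -1.22 for SQOR and 1.23 for RPH3AL.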

How the results depend on the processing

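With single arrays left out the called genes ran from 2345 to 2984, those of the common response from 2336 to 2976 and those of it whose lines differ from 35 to 133. With probe sets that may match several transcripts (_x_at and _s_at) dropped, 8369 genes were tested, 1768 were called, 1760 were common and 49 differed between lines. The genes whose lines differ, 115 in the report, were 35 with a pseudocount of 1, 201 with 64 and 72 when the dimmest and the brightest array by median were dropped. Requiring each line to pass its own test left 1733 common genes, and log2 intensity limits of 8 and 5 left 6 switched genes. The higher share of calls was 50.3%, but 60.1% with no normalization and 45.8% with median centring. MCL1 was at -0.01 as the mean of its probe sets. With those probe sets dropped, TPM1 was at -0.16, MBD4 at -0.16, ASAH1 at -0.31, EGFR at -0.10, RPS6 at -0.11 and MCL1 at -0.12; the cause was not tested. Of 77 called named genes 68 kept the call under all the alternatives that could be fitted for them and 9 lost it under at least 1; many were named for large or firm differences. Of 385 genes of the common response checked over all lists and sets, 241 kept the call and 144 lost it under at least 1 alternative, with a change of sign in 13 genes.

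Same-numbered arrays of different groups had correlations of their deviations from -0.451 to 0.336, with 0.083 to 0.225 for replicate 2. Deviations within groups share 1 axis, so these values cannot decide whether the replicate numbers pair the samples. The main model used no replicate block. With the replicate block 2883 genes were called and 2867 were common, and 69 of those differed between lines. Depth is not defined for arrays, and genes near background on both sides could show only large changes.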
